A study of Mus musculus with 6 samples.

Results

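The 9 genes described here code for transcription factors that act in the somatic cells of the developing gonad: Nr5a1, Gata4, Gata6, Wt1, Nr2f1, Nr2f2, Tcf21, Lhx9 and Emx2. They were taken as a fixed list and found by matching the NCBI gene numbers of the count tables to mouse symbols, and they are 9 of the 18305 genes in those tables. All 9 were found, and all 9 passed the filter on low counts. Their levels were compared between 3 kinds of cultured cells from KM mice, with 2 RNA sequencing libraries in each group. The CiLC group held embryonic fibroblasts, prepared at 12.5 or 13.5 days after mating, that were treated with small molecule compounds starting 24 h after seeding; the compounds, their doses and the length of treatment are not given in the labels. The LC group held Leydig cells prepared from testis and used at passage 0 to 1. The MEF group held the embryonic fibroblasts themselves, and both CiLC and MEF were used at passage 3 to 5. The labels name no engineered allele, and they do not state if both libraries of a pair were grown from different animals or dishes. The p-values therefore reflect only how far these particular libraries spread, a spread that may be purely technical. The design asks how far the induced fibroblasts resemble Leydig cells in their expression profile.

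The somatic gonad arises from the epithelium that covers the intermediate mesoderm of the embryo. Emx2, Lhx9, Wt1, Gata4 and Nr5a1 are each needed, in the mouse, for this tissue to thicken into the genital ridge or to survive there, and Wt1, Lhx9 and Gata4 act upstream of Nr5a1. Nr5a1 codes for steroidogenic factor 1, a nuclear receptor that binds DNA as a monomer and switches on most genes of steroid synthesis in gonad and adrenal. In the testis, Leydig cells keep Nr5a1, Gata4 and Nr2f2, supporting Sertoli cells keep Wt1, Gata4 and Nr5a1, and Tcf21 marks interstitial mesenchymal cells that include Leydig progenitors. Several of the 9 genes also work outside the gonad: Gata4, Gata6, Tcf21 and Wt1 in the heart, its covering layer and the mesothelium, and Emx2 and Nr2f1 in the brain.

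Promoter sequences are shown because the 9 genes fell into groups with opposite patterns, and the letters just upstream of the starts let a reader set those groups side by side. From the RefSeq promoter table for build GRCm38.p6, sequences were taken for 5 of the 9 members. Each has 250 bases before and 50 bases after an annotated transcription start. Each is given 5′ to 3′ on the gene's own strand. Capitals mark a match to a motif of GATA factors (AGATAA or AGATAG or the forms TGATAA or else TGATAG, searched on either strand) or of homeodomain factors (TAATTA or else TAATTG, also on either strand). The first 3 sequences belong to genes that were highest in LC. They come from Nr2f2 at chr7:70366697-70366996 on the minus strand, Tcf21 at chr10:22820094-22820393 on the minus strand and Lhx9 at chr1:138842395-138842694 on the minus strand; the Lhx9 start lies inside the gene. The last 2 belong to genes that were lowest in LC, Emx2 at chr19:59458440-59458739 on the plus strand and Nr2f1 at chr13:78198824-78199123 on the minus strand; the table lists 2 starts for Nr2f1, and the one at the 5′ end of the gene is given.
Nr2f2: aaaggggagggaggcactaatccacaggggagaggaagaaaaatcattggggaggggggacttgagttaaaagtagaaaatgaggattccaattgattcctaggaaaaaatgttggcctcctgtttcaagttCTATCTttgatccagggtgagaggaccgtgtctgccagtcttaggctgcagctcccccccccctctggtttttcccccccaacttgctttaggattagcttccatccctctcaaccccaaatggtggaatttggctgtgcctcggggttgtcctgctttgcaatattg
Tcf21: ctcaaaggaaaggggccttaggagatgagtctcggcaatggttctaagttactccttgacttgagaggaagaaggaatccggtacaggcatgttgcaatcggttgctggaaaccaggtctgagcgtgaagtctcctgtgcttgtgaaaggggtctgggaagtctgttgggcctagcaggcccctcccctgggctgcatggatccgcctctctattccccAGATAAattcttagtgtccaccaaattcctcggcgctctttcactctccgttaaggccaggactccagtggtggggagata
Lhx9: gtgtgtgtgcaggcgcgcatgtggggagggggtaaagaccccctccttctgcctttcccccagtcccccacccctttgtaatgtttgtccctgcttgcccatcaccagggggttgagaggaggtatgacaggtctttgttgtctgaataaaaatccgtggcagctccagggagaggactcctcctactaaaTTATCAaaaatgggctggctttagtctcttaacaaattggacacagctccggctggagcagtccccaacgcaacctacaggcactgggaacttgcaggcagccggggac
Emx2: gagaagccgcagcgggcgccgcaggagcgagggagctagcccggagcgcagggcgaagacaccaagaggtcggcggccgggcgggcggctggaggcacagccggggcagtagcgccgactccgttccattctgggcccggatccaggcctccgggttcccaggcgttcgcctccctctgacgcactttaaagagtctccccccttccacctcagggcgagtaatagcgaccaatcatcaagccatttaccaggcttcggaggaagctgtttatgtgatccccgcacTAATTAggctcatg
Nr2f1: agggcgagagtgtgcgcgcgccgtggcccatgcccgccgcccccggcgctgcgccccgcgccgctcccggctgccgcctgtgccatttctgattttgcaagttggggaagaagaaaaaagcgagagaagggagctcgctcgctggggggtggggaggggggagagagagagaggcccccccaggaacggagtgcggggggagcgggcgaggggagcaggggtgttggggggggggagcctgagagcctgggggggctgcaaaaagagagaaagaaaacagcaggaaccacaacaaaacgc
No sequence was taken for Nr5a1, Gata4, Gata6 and Wt1. The search left out a chromosome, so a gene without a sequence here may still have an entry.

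The 3 promoters of the genes highest in LC each held a GATA motif, at position -118 from the start in Nr2f2, written CTATCT on this strand, at -31 in Tcf21 as AGATAA and at -59 in Lhx9 as TTATCA. The Emx2 window held a homeodomain motif, TAATTA, at position 36 after the start. The Nr2f1 window held neither. A GATA motif of this kind occurred in 29.8% of the 32851 promoters of the same table and the homeodomain motif in 12.4%. No match was found in these 5 windows for AGGTCA, the half-site of nuclear receptors, which 16.3% of all promoters hold, for CAGCTG, an E-box bound by TCF21, which 16.3% hold, or for GCGTGGG, a WT1 motif, which 5.04% hold. These matches describe the letters only. The windows lie on another build than the counts.

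The markers of the labelled cell types were checked before the members. The libraries held 18.4 M to 18.9 M estimated reads each. LC libraries were highest in the summed level of 7 Leydig markers, given as CPM, reads scaled to a common library size, at 945 and 914, against 78.6 and 75.5 in CiLC and 7.39 and 9.25 in MEF. Most of this sum was Cyp11a1 in LC, at 717.8 and 692.7 CPM, and Star in CiLC, at 58.4 and 57.6 CPM. Cyp17a1 and Lhcgr, both on this list, were nearly missing from LC all the same. Cyp17a1, the enzyme that turns progestins into androgens, had 0 and 1 reads in the LC libraries, 1 and 1 in CiLC and 0 and 1 in MEF. Lhcgr, the luteinizing hormone receptor, had 3 and 2 reads in LC, 0 and 0 in CiLC and 0 and 1 in MEF. Insl3, a Leydig peptide hormone also listed, had 104.12 and 120 reads in LC, 18.51 and 3.44 in CiLC and 0 and 37.01 in MEF. The 4 listed genes that passed the filter were all called higher in LC than in MEF, beside 35.7% of all tested genes. For Insl3 this call was lost with DESeq2 (adjusted p = 0.272). Summed CPM of 10 Sertoli markers was 229.6 and 235.7 in CiLC, 2222 and 2223 in LC and 36.7 and 41.0 in MEF, with Fshr and Gata1 at 0 in every CiLC and MEF library. Most of the LC sum was Clu, at 1939 and 1945 CPM. Most of the CiLC sum was Inhbb, at 132.8 and 136.9 CPM, and Clu, at 78.9 and 80.5 CPM. Summed CPM of 10 mesothelial markers was 216.9 and 199.3 in CiLC, 5.10 and 3.77 in LC and 26.1 and 28.7 in MEF. Macrophage markers summed to 10895 and 11089 CPM in CiLC, 3923 and 3598 in LC and 7647 and 7743 in MEF. Most of that sum was Lyz2, the lysozyme gene, with 7485 and 7657 CPM in CiLC, 2709 and 2400 in LC and 2632 and 2688 in MEF, and the 10 macrophage genes did not move together in CiLC against MEF, where 4 were called higher, 5 lower and 1 not. Fibroblast markers summed to between 27146 and 30373 CPM in all 6 libraries, most of it from the collagen genes Col1a1, Col1a2 and Col3a1. The single fibroblast genes differed more than the sum: in LC against MEF 3 were called higher and 4 lower, Thy1 had 795.2 and 838.1 CPM in CiLC, 5.57 and 5.89 in LC and 394.6 and 395.7 in MEF, and Lum had 373.0 and 369.6 CPM in CiLC, 6.44 and 5.00 in LC and 96.6 and 85.9 in MEF. Endothelial markers summed to 9.67 and 9.63 CPM in CiLC, 69.2 and 77.5 in LC and 24.8 and 24.2 in MEF. Germ cell markers summed to between 2.14 and 6.65 CPM. Adrenal markers summed to 3.87 and 4.36 CPM in CiLC, 137.7 and 134.4 in LC, where most was Mrap, and 0.577 and 0.938 in MEF. The summed level of 6 peritubular and smooth muscle markers was 242.2 and 238.9 CPM in CiLC, 1018 and 1003 in LC and 1776 and 1696 in MEF. In bulk cultures, fewer cells of a type and less RNA per cell cannot be told apart.

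**Figure D1:**
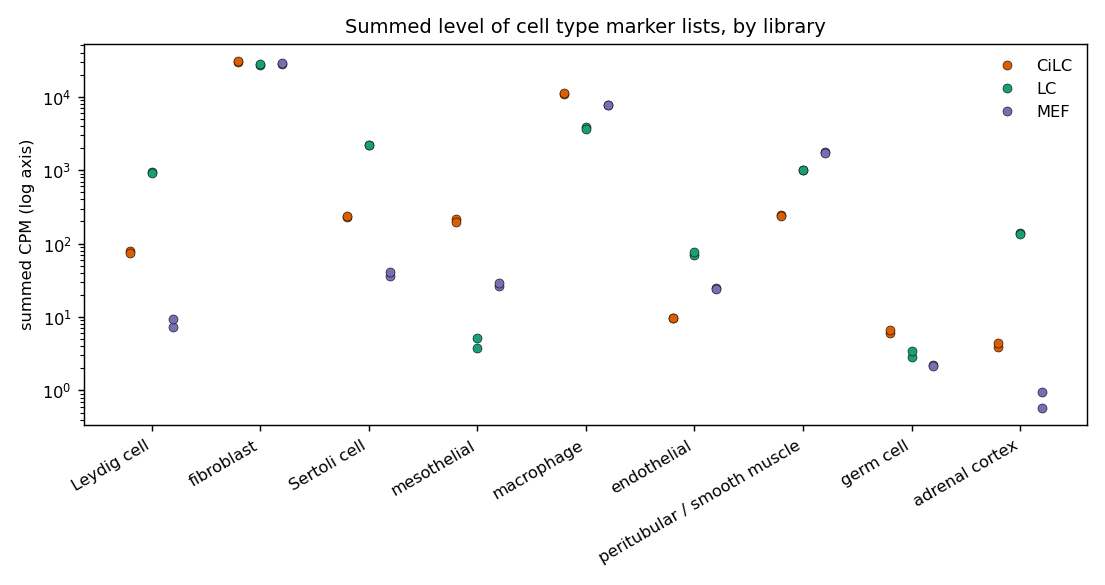
Summed CPM of each list of cell type markers, on a log axis, with 1 point for each library of CiLC, LC and MEF. Leydig and Sertoli markers were highest in the LC libraries, at 914 to 945 and 2222 to 2223 CPM, and mesothelial markers in the CiLC libraries, at 199.3 to 216.9 CPM. In LC, most of the Leydig sum was Cyp11a1 and most of the Sertoli sum was Clu.

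In CiLC against MEF, 8 of the 9 genes were higher and 0 were lower, also by DESeq2, by limma and at an unadjusted p under 0.05. Nr5a1 had the largest difference, with 1361 and 1355 reads in the CiLC libraries and 3 reads in each MEF library. Gata4 followed at 18.5-fold, then Tcf21, Wt1 and Gata6, while Emx2, Nr2f1 and Nr2f2 differed by 1.17-fold to 1.61-fold. Lhx9 did not pass the test. A gene was called at a Benjamini-Hochberg adjusted p under 0.05 in edgeR's quasi-likelihood test over all 14581 genes tested, and by that rule 51.6% of all tested genes were called in this comparison, 26.1% as higher and 25.5% as lower. The median log2 fold change was 1.06 over the 9 members and 0.005 over all tested genes.

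Nr5a1 (NCBI gene 26423) had 69.3 and 68.7 CPM in CiLC, from 1361 and 1355 reads, against 0.157 and 0.156 CPM in MEF, from 3 and 3 reads. Both CiLC libraries lay close together, far above MEF. The log2 fold change was 8.72 ± 0.59 (SE, n = 2 each; edgeR adjusted p = 2.76e-22), and because the MEF libraries held only 6 reads in all, the ratio of summed reads, 440.2, has a 95% binomial interval of 202.0 to 1201 that covers counting error only.

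Gata4 (14463) codes for a zinc finger factor that binds the promoters of Star and of Leydig hormone genes beside NR5A1. It had 72.2 and 71.9 CPM in CiLC and 3.83 and 3.96 CPM in MEF, so it was present in MEF at a low level rather than nearly missing. Its log2 fold change was 4.21 ± 0.13 (SE; edgeR adjusted p = 3.36e-21). Gata6 (14465), its close relative and a regulator of steroidogenic genes in the gonad and adrenal, had 17.1 and 16.3 CPM in CiLC and 6.97 and 9.06 CPM in MEF. The groups did not overlap, although the MEF libraries differed from each other by more than the CiLC libraries did, and CiLC was 2.09-fold higher (log2 1.06 ± 0.12, edgeR adjusted p = 4.52e-08).

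Wt1 (22431), the Wilms tumour factor of the coelomic epithelium, Sertoli cells and mesothelium, had 20.0 and 16.9 CPM in CiLC and 6.40 and 5.05 CPM in MEF. CiLC was 3.23-fold higher (log2 1.69 ± 0.12, edgeR adjusted p = 1.85e-11). Tcf21 (21412), a basic helix-loop-helix factor of mesenchymal progenitors in testis, kidney, lung and heart, had 2.04 and 1.52 CPM in CiLC and 0.315 and 0.0521 CPM in MEF. Every CiLC library lay above every MEF library, but on few reads, 40 and 30 in CiLC against 6 and 1 in MEF. The ratio of summed reads was 9.72, with a counting interval of 4.48 to 25.1, and the edgeR adjusted p was 2.29e-06. The size of this difference rested on the MEF library used: without MEF replicate 1 the fitted fold was 30.3, and without MEF replicate 2 it was 5.54.

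The 10 mesothelial markers moved in the same direction as these genes, with 10 of 10 called higher in CiLC than in MEF, beside 26.1% of all tested genes. Krt8, a marker on this list, passed the filter only through CiLC, so its direction was largely fixed by the filter. Upk3b, a marker of mature mesothelium, had 36.6 and 32.1 CPM in CiLC and 2.57 and 3.54 in MEF, and Msln, the mesothelin gene, had 37.6 and 37.2 CPM in CiLC and 3.77 and 4.79 in MEF. Of the 10 Sertoli markers 8 passed the filter, with 4 called higher in CiLC, 1 lower and 3 not called. Of all tested genes 26.1% were called higher and 25.5% lower. The part of either marker list in the results for Wt1, Gata4, Gata6 and Tcf21 was not tested.

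Among the remaining genes, Emx2 (13797), a homeobox factor of the urogenital ridge and forebrain, had 25.7 and 26.1 CPM in CiLC and 16.6 and 15.6 CPM in MEF, a 1.61-fold difference (log2 0.69 ± 0.09, edgeR adjusted p = 2.35e-07). Nr2f1 (13865), the nuclear receptor COUP-TFI, had 10.2 and 10.6 CPM in CiLC and 7.09 and 6.51 in MEF, 1.53-fold higher in CiLC (edgeR adjusted p = 0.000218). Nr2f2 (11819), its relative COUP-TFII, which in the testis marks interstitial cells and Leydig progenitors, differed least. It had 61.0 and 61.3 CPM in CiLC and 52.7 and 52.1 CPM in MEF, a 1.17-fold difference (edgeR adjusted p = 0.00210) that still exceeded the spread within either pair. Lhx9 (16876), a LIM homeobox factor of the early genital ridge, had 1.21 and 0.861 CPM in CiLC and 1.99 and 1.15 CPM in MEF. Its groups overlapped, and the log2 fold change of -0.59 ± 0.31 did not pass (edgeR adjusted p = 0.117), except that without MEF replicate 2 it was called as lower (log2 -0.93, edgeR adjusted p = 0.0268).

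The spread within groups was small here, at a common biological coefficient of variation of 3.16% over all genes. When 0.4 was assumed in its place, Nr5a1, Gata4 and Tcf21 were the 3 members still called in CiLC against MEF, and the adjusted p was 0.0895 for Wt1, 0.642 for Gata6 and 1.00 for Nr2f1, Nr2f2 and Emx2. With 0.1 assumed, Nr2f2 was the member lost, at 0.294.

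**Figure D2:**
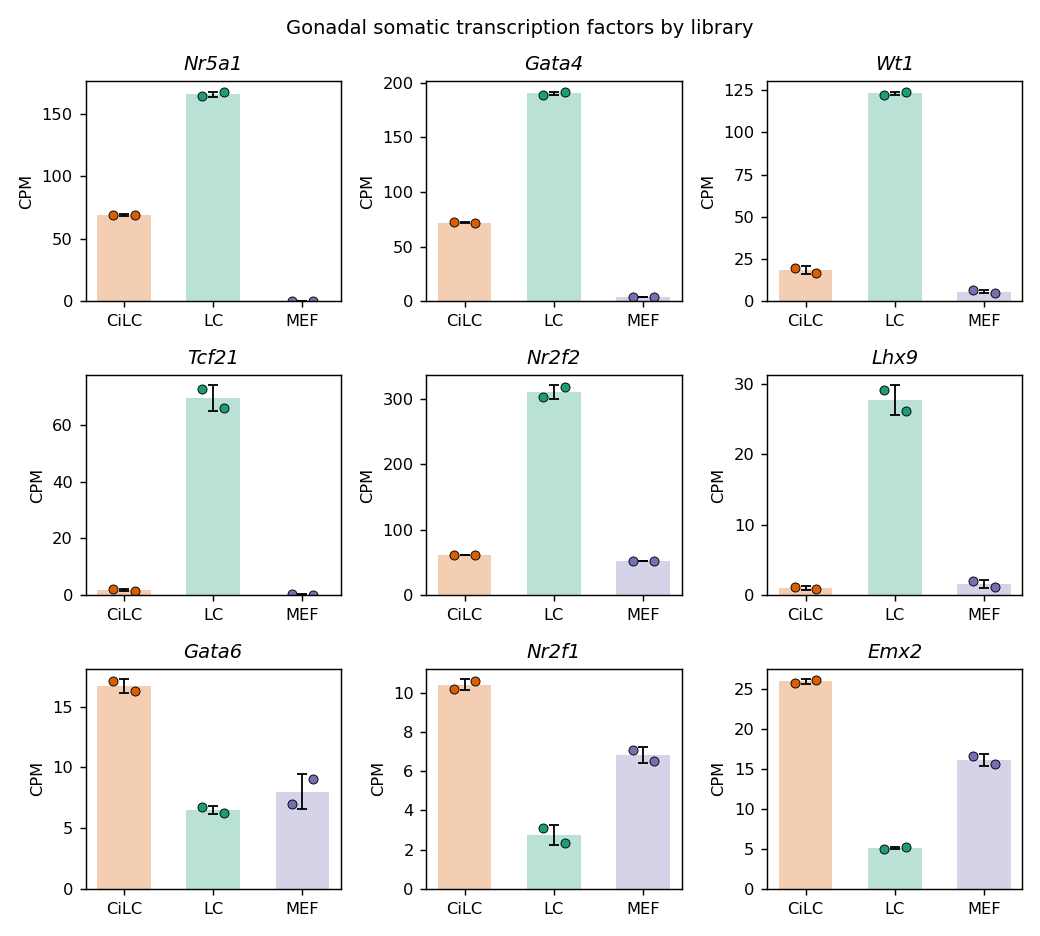
CPM of the 9 genes, 1 panel for each gene with its own axis from 0. Bars are group means, error bars the SD of 2 libraries and points the libraries of CiLC, LC and MEF. Nr5a1, Gata4, Wt1, Tcf21, Nr2f2 and Lhx9 were highest in LC, and Gata6, Nr2f1 and Emx2 were highest in CiLC.

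In LC against MEF, 6 of the 9 genes were higher, Emx2 and Nr2f1 were lower, and Gata6 did not pass. Nr2f2 rose by 5.93-fold and the other 5 by 17.6-fold or more. By the same rule 70.7% of all tested genes were called in this comparison, 35.7% as higher and 35.0% as lower. The median log2 fold change was 4.14 over the members and -0.008 over all tested genes. This comparison shares the MEF libraries with the one above, so values low or high by chance in MEF enter both.

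Nr5a1 had 163.9 and 167.1 CPM in LC, from 2827 and 2839 reads, against 0.157 and 0.156 CPM in MEF. The ratio of summed reads was 1056, with a counting interval of 485 to 2879 set by the 6 MEF reads (log2 9.98 ± 0.59, edgeR adjusted p = 1.49e-25). Gata4 had 189 and 191 CPM in LC and 3.83 and 3.96 CPM in MEF, 48.8-fold higher (log2 5.61 ± 0.13, edgeR adjusted p = 3.69e-25). For both genes the LC libraries lay close together and every LC library stood far above every MEF library.

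Tcf21 had the largest fold after Nr5a1. It had 72.7 and 66.2 CPM in LC and 0.315 and 0.0521 CPM in MEF, which is 1254 and 1125 reads against 6 and 1. The ratio of summed reads was 380.1, with a counting interval of 184 to 946 (edgeR adjusted p = 1.70e-21), and the fitted fold was 1176 without MEF replicate 1 and 215.3 without MEF replicate 2. Lhx9 had 29.2 and 26.2 CPM in LC and 1.99 and 1.15 CPM in MEF, 17.6-fold higher (log2 4.14 ± 0.21, edgeR adjusted p = 9.27e-17). Nr2f2 had 304 and 318 CPM in LC and 52.7 and 52.1 CPM in MEF, 5.93-fold higher (log2 2.57 ± 0.06, edgeR adjusted p = 3.30e-22), the smallest of the 6 rises and the one with the smallest SE.

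Wt1 had 122.2 and 123.8 CPM in LC and 6.40 and 5.05 CPM in MEF, 21.5-fold higher (log2 4.42 ± 0.11, edgeR adjusted p = 2.67e-22). In the testis Wt1 is known mainly from Sertoli cells. Of 10 Sertoli markers 8 passed the filter, and all 8 were called higher in LC than in MEF, beside 35.7% of all tested genes. Some passed the filter only through LC, such as Gata1 with 45 and 55 reads in LC and 0 in every other library. The direction of such genes was largely fixed by the filter. Clu, a secreted chaperone abundant in Sertoli cells, had 1939 and 1945 CPM in LC and 15.7 and 18.7 in MEF, and Dhh, the hedgehog ligand that Sertoli cells make, had 14.2 and 11.9 CPM in LC and 0 and 0.104 in MEF. The 10 mesothelial markers summed to 5.10 and 3.77 CPM in LC and 26.1 and 28.7 in MEF. Of these, 8 were called lower in LC and 2 were not called, beside 35.0% of all tested genes called lower. Several could not pass the filter through LC, such as Upk1b with 1 and 0 reads there, which largely fixed their direction. The part of the Sertoli transcripts in the results for Wt1, Gata4 and Nr5a1 was not tested.

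Emx2 fell to 5.04 and 5.18 CPM in LC, against 16.6 and 15.6 CPM in MEF, 3.14-fold lower (log2 -1.65 ± 0.14, edgeR adjusted p = 7.14e-12). Nr2f1 fell to 3.08 and 2.36 CPM in LC, against 7.09 and 6.51 CPM in MEF, 2.50-fold lower (log2 -1.32 ± 0.19, edgeR adjusted p = 2.49e-07). Thus the COUP-TF pair moved in opposite directions, Nr2f2 up and Nr2f1 down. Gata6 had 6.73 and 6.24 CPM in LC and 6.97 and 9.06 CPM in MEF. The libraries did not overlap, but the log2 fold change of -0.31 ± 0.14 missed the threshold (edgeR adjusted p = 0.0558); it was called as lower with upper quartile scaling (-0.41, adjusted p = 0.0120), with a filter at 5 CPM (adjusted p = 0.0465) and without MEF replicate 1 (-0.49, adjusted p = 0.00651). With an assumed coefficient of variation of 0.4, Nr2f1 was no longer called, at an adjusted p of 0.141.

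CiLC and LC differed from each other in all 9 genes. Nr5a1, Gata4, Wt1, Nr2f2, Tcf21 and Lhx9 were lower in CiLC, and Gata6, Nr2f1 and Emx2 were higher. By the same rule 70.6% of all tested genes were called between these groups, 35.0% as higher in CiLC and 35.6% as lower, so a call in itself was common. The median log2 fold change was -1.40 over the members and 0.005 over all tested genes.

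The 6 lower genes covered a wide range. Nr5a1 in CiLC was at 41.7% of its LC level and Gata4 at 37.9%, that is 2.40-fold lower (log2 -1.26 ± 0.05, edgeR adjusted p = 1.04e-16) and 2.64-fold lower (log2 -1.40 ± 0.05, edgeR adjusted p = 1.14e-17). Nr2f2 was at 19.7% of LC and Wt1 at 15.0%, 5.08-fold and 6.66-fold lower (edgeR adjusted p = 1.54e-21 and 4.50e-20). Lhx9 and Tcf21 were furthest from LC, at 3.75% and 2.56%. Tcf21 averaged 1.78 ± 0.364 CPM in CiLC and 69.5 ± 4.59 CPM in LC (SD, n = 2 each; log2 -5.28 ± 0.19, edgeR adjusted p = 9.67e-21), and Lhx9 averaged 1.04 ± 0.250 CPM in CiLC and 27.7 ± 2.13 CPM in LC (log2 -4.72 ± 0.25, edgeR adjusted p = 3.42e-17).

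The 3 higher genes are the same 3 that were highest in CiLC of all groups. Emx2 averaged 25.9 ± 0.295 CPM in CiLC and 5.11 ± 0.0959 CPM in LC (SD, n = 2 each), 5.06-fold higher (log2 2.34 ± 0.13, edgeR adjusted p = 2.28e-15). Nr2f1 averaged 10.4 ± 0.316 CPM in CiLC and 2.72 ± 0.513 CPM in LC, 3.83-fold higher (log2 1.94 ± 0.18, edgeR adjusted p = 1.02e-10). Gata6 averaged 16.7 ± 0.580 CPM in CiLC and 6.48 ± 0.344 CPM in LC, 2.58-fold higher (log2 1.37 ± 0.13, edgeR adjusted p = 8.92e-10). All 10 mesothelial markers were also called higher in CiLC than in LC, beside 35.0% of all tested genes. Several of them held too few reads in LC to pass the filter through it, such as Upk1b with 1 and 0. The direction of such genes was largely fixed by the filter. The part of the mesothelial markers in the Gata6 result was not tested. When 0.4 was assumed for the coefficient of variation, the calls of Nr5a1 (adjusted p = 0.158), Gata4 (0.0983) and Gata6 (0.118) were lost and the other 6 stayed.

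**Figure D3:**
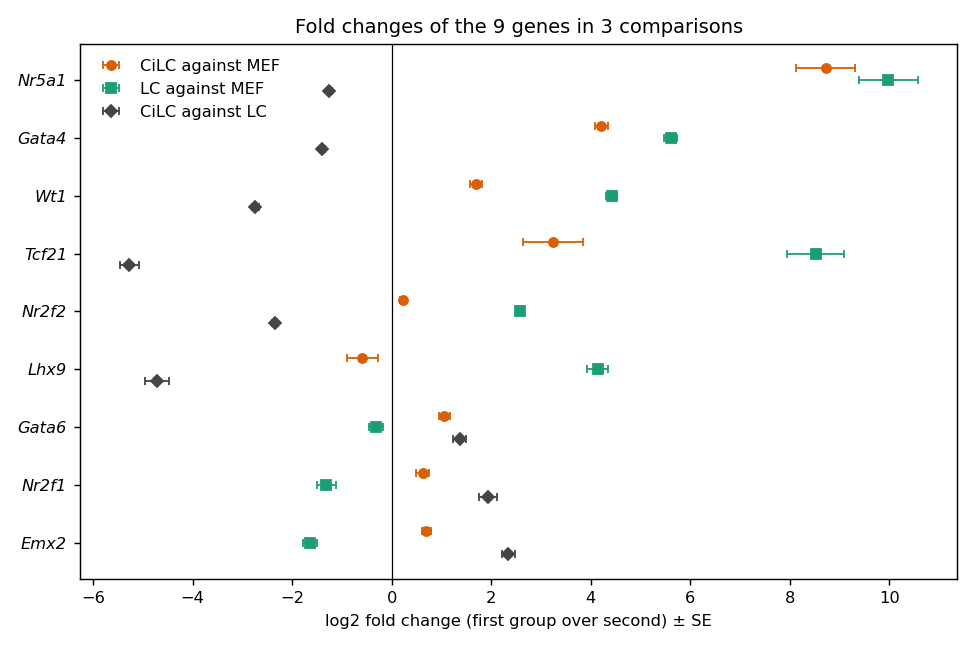
Log2 fold change of the 9 genes in CiLC against MEF, LC against MEF and CiLC against LC, with bars for the SE from the edgeR fit. Against MEF, Nr5a1 reached 8.72 in CiLC and 9.98 in LC, while Tcf21 reached 3.24 in CiLC and 8.52 in LC.

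The order of levels over the 3 groups was LC, then CiLC, then MEF for Nr5a1, Gata4, Wt1, Nr2f2 and Tcf21, with no overlap between neighbouring groups. For Gata6, Nr2f1 and Emx2 the order was CiLC, then MEF, then LC, also with no overlap, although MEF and LC did not differ by the test for Gata6. Lhx9 was highest in LC, and its CiLC and MEF libraries overlapped. The share of all tested genes whose groups do not overlap was not counted. The lack of overlap therefore cannot be read as particular to these genes.

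Divided by the length of the longest GENCODE coding transcript, levels can be set side by side between genes. In LC, mean CPM per kilobase was 73.6 for Nr2f2, 55.9 for Gata4, 55.3 for Nr5a1, 39.8 for Wt1 and 38.8 for Tcf21, against 5.61 for Lhx9 and 0.848 to 2.01 for the other 3. In CiLC, Nr5a1 at 23.0 and Gata4 at 21.2 led, followed by Nr2f2 at 14.5, Emx2 at 8.88, Wt1 at 5.97 and Gata6 at 5.16, with Tcf21 at 0.996 and Lhx9 at 0.210. In MEF, Nr2f2 led at 12.4 and Emx2 followed at 5.52, while Nr5a1 stood at 0.0523. The order of genes depends on the transcript chosen. With the shortest coding transcript, Nr2f2 had 36.7 CPM per kilobase in CiLC, Gata4 29.9 and Nr5a1 23.4. On that scale Nr2f2 led in LC at 187 CPM per kilobase, followed by Wt1 at 79.2, Gata4 at 79.0 and Nr5a1 at 56.2. In MEF Nr2f2 led at 31.5, and Nr2f1 at 8.09 stood above Emx2 at 5.52.

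The patterns of the 9 genes were also set against each other and against all tested genes, by the Euclidean distance of log2(CPM + 0.5), centred on each gene's mean, over the 6 libraries. Nr2f1 and Emx2 were the closest members, at a distance of 0.557, followed by Gata6 and Nr2f1 at 0.989. Wt1 and Nr2f2 stood 1.88 apart and Nr2f2 and Lhx9 1.96, and Nr5a1 and Emx2 were the farthest apart at 9.66. The gene nearest to Nr5a1 was Steap4, a metalloreductase, with 254.8 CPM in CiLC, 400.2 in LC and 1.98 in MEF, at 0.728, then Apln and Marco at 1.39 and 1.95. Nearest to Gata4 were Col15a1, a basement membrane collagen with 159.4 CPM in CiLC, 440.0 in LC and 14.4 in MEF, and Star, the carrier that brings cholesterol into mitochondria, at distances of 0.695 and 0.718. Nearest to Tcf21 were Lipg, Fmo1 and Aldh1a2, at 0.510, 0.700 and 0.772. Aldh1a2, which makes retinoic acid, had 9.85 CPM in CiLC, 382.2 in LC and 3.66 in MEF.

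The genes nearest to Emx2 were Sfrp1, a secreted Wnt antagonist, at 0.110, Gria3 at 0.129 and the Wnt ligand gene Wnt5a at 0.149. Sfrp1 had 941.8 CPM in CiLC, 191.2 in LC and 571.8 in MEF, and Wnt5a had 118.6 in CiLC, 26.2 in LC and 76.4 in MEF, both in the order CiLC, MEF, LC that Emx2 has. Nr2f1 was closest to Omd, Cd300ld3 and Zdbf2 at 0.201 to 0.217, and Gata6 to Slc5a5, Grap and Ptprt at 0.207 to 0.295. Wt1 was closest to Clstn3, Ifitm1 and Gbp5 at 0.380 to 0.411, Nr2f2 to Rnase2a, Pgm1 and Mlkl at 0.0494 to 0.0983, and Lhx9 to Adora2a, Gm13889 and Gm10220 at 0.316 to 0.477. The added 0.5 draws in genes with few reads, so that Rnase2a, at 0.101 CPM in CiLC, 2.48 in LC and 0 in MEF, came nearest to a gene that is far higher.

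Other members of the same gene families were measured as well. Of 14 listed paralogs 9 passed the filter, and in CiLC against MEF 2 were called higher, 1 lower and 6 not (median log2 0.00), beside 26.1% of all tested genes called higher and 25.5% lower. Lhx8, a LIM homeobox factor of the basal forebrain and tooth, had 5.60 and 5.63 CPM in CiLC and 1.31 and 1.04 in MEF, 4.75-fold higher (edgeR adjusted p = 3.69e-08), while its relative Lhx9 was not called. Gata2, a factor of blood and endothelium, averaged 3.18 CPM in CiLC and 1.96 in MEF (1.62-fold, edgeR adjusted p = 0.0107), a call that was lost with DESeq2 at an adjusted p of 0.106, without CiLC replicate 1 at 0.0996 and without MEF replicate 2 at 0.0532. Gata3 and Gata5 averaged 0.584 to 1.02 CPM in the 3 groups and did not pass in any comparison, and Nr5a2, the closest relative of Nr5a1, had at most 0.464 CPM in any library and was not tested.

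Set against MEF, LC had 5 of the 9 tested paralogs higher, 2 lower and 2 not called (median log2 0.75), beside 35.7% of all tested genes higher and 35.0% lower. Gata1, the GATA factor of red cells and Sertoli cells, had 100 reads in LC and none in MEF, at least 37.3-fold higher. Tcf24, a relative of Tcf21, averaged 13.6 CPM in LC and 0.601 in MEF, 22.4-fold higher (edgeR adjusted p = 4.09e-15). Msc, another relative of Tcf21, had 73 reads in LC and 1 in MEF, a ratio of 81.6 with a counting interval of 14.2 to 3268; the fitted fold was 36.3 without MEF replicate 1. Lhx8 had no read in LC and 45 in MEF, at least 13.4-fold lower. Some of these paralogs, such as Gata1 and Msc, passed the filter only through LC, and Lhx8 could not pass through it. Their direction was largely fixed by the filter, both here and between CiLC and LC. Between CiLC and LC, 1 paralog was higher in CiLC, 4 lower and 4 not called (median log2 -0.80), beside 35.0% of all tested genes higher and 35.6% lower. Lhx8 was at least 64.1-fold higher, Gata1 at least 38.3-fold lower and Tcf24 23.0-fold lower (edgeR adjusted p = 3.62e-15).

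Other regulators of the genital ridge formed a list of 11 genes. In CiLC 0 of them were called higher than in MEF, 9 were called lower and 2 were not called (median log2 -0.39), beside 26.1% of all tested genes called higher and 25.5% lower; 1 of the 11, the insulin receptor gene Insr, was higher at an unadjusted p under 0.05 and by limma, and 0 were higher by DESeq2. Six4, a homeobox factor that acts upstream of Nr5a1 in the mouse gonad, had 6.04 and 6.12 CPM in CiLC and 13.1 and 11.2 CPM in MEF, 1.99-fold lower (edgeR adjusted p = 6.42e-07). Zfpm2, the FOG2 cofactor that binds GATA4 and is needed for testis formation, had 9.87 and 10.5 CPM in CiLC and 25.4 and 25.2 in MEF, 2.49-fold lower (edgeR adjusted p = 1.23e-11).

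In LC against MEF the same list held 5 higher, 5 lower and 1 not called (median log2 -0.14), beside 35.7% of all tested genes higher and 35.0% lower. Cited2, a coactivator that raises Nr5a1 together with WT1 in the mouse, had 304.5 and 317.4 CPM in LC and 182.6 and 179.9 in MEF, 1.72-fold higher (edgeR adjusted p = 3.47e-13), and Zfpm2 was 1.31-fold higher (edgeR adjusted p = 5.76e-05). Cbx2, a chromatin protein of testis determination, was 1.28-fold lower by a call that DESeq2 did not make (adjusted p = 0.160). Between CiLC and LC, 1 gene of the list was higher in CiLC, 6 were lower and 4 were not called (median log2 -0.20), beside 35.0% of all tested genes higher and 35.6% lower. Zfpm2 was 3.26-fold lower and Cited2 2.71-fold lower in CiLC. With a coefficient of variation of 0.4 assumed, 1 gene of the list was called in each comparison, which between CiLC and LC was Zfpm2; the other calls named here for Six4, Zfpm2, Cited2 and Cbx2 were lost.

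Of 25 listed protein partners and cofactors of the members, 24 passed the filter. In CiLC against MEF, 3 were higher, 13 lower and 8 not called (median log2 -0.17), beside 26.1% of all tested genes higher and 25.5% lower. Zfpm1, the FOG1 cofactor of GATA factors, averaged 19.1 CPM in CiLC and 32.6 in MEF, 1.71-fold lower (edgeR adjusted p = 2.96e-08), so both FOG genes were lower while Gata4 and Gata6 were higher. Ssbp2, a partner of the LIM domain binding proteins that LHX factors recruit, was 1.84-fold higher (edgeR adjusted p = 5.18e-10). With a coefficient of variation of 0.4, 0 partners were called in either direction in this comparison, where 2 were lower at an unadjusted p under 0.05.

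Between LC and MEF, 8 partners were higher in LC, 14 lower and 2 not called (median log2 -0.17), beside 35.7% of all tested genes higher and 35.0% lower. Bcl11b, also called CTIP2 and known to bind COUP-TF proteins, averaged 0.195 CPM in LC and 26.0 in MEF (142.8-fold lower, edgeR adjusted p = 3.24e-19), and Ldb2, which bridges LIM homeodomain factors, averaged 4.85 CPM in LC and 61.7 in MEF (12.7-fold lower, edgeR adjusted p = 1.29e-20). Between CiLC and LC, 12 partners were higher in CiLC, 7 lower and 5 not called (median log2 0.08), beside 35.0% of all tested genes higher and 35.6% lower. Bcl11b was 116.6-fold higher and Ldb2 10.2-fold higher in CiLC. Nr0b1, the DAX1 repressor of NR5A1, had 0 and 0 reads in CiLC, 1 and 2 in LC and 0 and 0 in MEF and was not tested.

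Of 19 other transcription factors of Leydig and interstitial cells, 16 passed the filter. In CiLC against MEF 4 were higher, 8 lower and 4 not called (median log2 -0.08), beside 26.1% of all tested genes higher and 25.5% lower. Nr3c1, the glucocorticoid receptor, had 231.8 and 219.5 CPM in CiLC and 158.0 and 149.5 in MEF, 1.47-fold higher (edgeR adjusted p = 2.06e-09). Nr4a1, the NUR77 factor that drives Star in response to luteinizing hormone, had 95.5 and 96.1 CPM in CiLC and 242.2 and 258.9 in MEF, 2.62-fold lower (edgeR adjusted p = 1.07e-16). Its relative Nr4a2 was 2.72-fold lower (edgeR adjusted p = 2.04e-10). With a coefficient of variation of 0.4, 0 of these factors were called in this comparison, where 1 was higher and 2 lower at an unadjusted p under 0.05.

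Of the same 16, LC had 8 higher than MEF, 6 lower and 2 not called (median log2 0.21), beside 35.7% of all tested genes higher and 35.0% lower. Nr4a2 averaged 4.35 CPM in LC and 25.9 in MEF, 5.94-fold lower (edgeR adjusted p = 5.15e-14), and Mef2c, a MADS box factor, averaged 28.1 CPM in LC and 101.2 in MEF, 3.61-fold lower (edgeR adjusted p = 8.80e-18). Between CiLC and LC, 6 were higher in CiLC, 8 lower and 2 not called (median log2 -0.28), beside 35.0% of all tested genes higher and 35.6% lower. Nr4a2 was 2.19-fold higher in CiLC (edgeR adjusted p = 1.50e-06), a call lost with a coefficient of variation of 0.4, and Nr4a3 was 3.75-fold lower (edgeR adjusted p = 3.90e-06).

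Of 10 transcription factors of Sertoli and granulosa cells, 9 passed the filter, and in CiLC against MEF 3 were higher, 3 lower and 3 not called (median log2 -0.04), beside 26.1% of all tested genes higher and 25.5% lower. Dmrt1, the DM domain factor of the testis, had 49 reads in CiLC and none in MEF, at least 15.9-fold higher against a floor of 3 reads for the group. Irx3, an Iroquois factor of granulosa cells, was 1.67-fold higher (edgeR adjusted p = 1.63e-06), a call lost with a coefficient of variation of 0.4. Sox9, the factor that starts Sertoli differentiation, had 10.2 and 9.28 CPM in CiLC and 8.11 and 8.53 in MEF and was not called (edgeR adjusted p = 0.0902).

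In LC against MEF, 3 of these factors were higher, 4 lower and 2 not called (median log2 -0.14), beside 35.7% of all tested genes higher and 35.0% lower. Sox9 had 45.1 and 47.5 CPM in LC and 8.11 and 8.53 in MEF, 5.55-fold higher (edgeR adjusted p = 1.48e-17), and Dmrt1 had 89 reads in LC, at least 33.2-fold higher. Sox8 had 49 and 59 reads in LC and 1 and 9 in MEF, a ratio of summed reads of 12.1 with a counting interval of 6.32 to 25.9 (edgeR adjusted p = 2.25e-07). The size of the Sox8 difference rested on the MEF library used, at 6.63-fold without MEF replicate 1 and 53.4-fold without MEF replicate 2. Irx5 was 43.9-fold lower (edgeR adjusted p = 1.93e-15). Between CiLC and LC, 3 were higher in CiLC, 4 lower and 2 not called (median log2 -0.58), beside 35.0% of all tested genes higher and 35.6% lower. Sox9 was 4.74-fold lower in CiLC (edgeR adjusted p = 5.67e-17) and Irx5 55.7-fold higher (edgeR adjusted p = 2.29e-16).

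Genes known to be activated by NR5A1 were set beside Nr5a1 itself. Of 24 such genes 19 passed the filter. In CiLC against MEF 9 were higher, 1 lower and 9 not called (median log2 0.75, beside 26.1% of all tested genes called higher and 25.5% lower); with a coefficient of variation of 0.4, 5 were higher and 0 lower. Prlr, the prolactin receptor, had 91.8 and 88.6 CPM in CiLC and 3.49 and 4.40 in MEF, 22.7-fold higher (edgeR adjusted p = 1.60e-21). Star had 58.4 and 57.6 CPM in CiLC and 5.08 and 5.47 in MEF, 11.0-fold higher (edgeR adjusted p = 7.85e-20), and Cyp11a1, which cleaves the cholesterol side chain, had 12.8 and 11.8 CPM in CiLC and 1.42 and 1.25 in MEF, 9.19-fold higher (edgeR adjusted p = 5.01e-14).

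Hsd3b1, which makes progesterone from pregnenolone, was 8.61-fold higher (edgeR adjusted p = 4.12e-11). The redox partners of CYP11A1 did not pass: Fdx1 averaged 8.18 CPM in CiLC and 7.75 in MEF (edgeR adjusted p = 0.630), and Fdxr averaged 6.17 CPM in CiLC and 7.36 in MEF (edgeR adjusted p = 0.0957). Scarb1, the lipoprotein receptor that brings in cholesterol, averaged 41.0 CPM in CiLC and 40.0 in MEF (edgeR adjusted p = 0.664). Vnn1, a pantetheinase of fetal Sertoli cells, was 3.00-fold lower in CiLC (edgeR adjusted p = 1.03e-05), a call lost with a coefficient of variation of 0.4. Insl3, a Leydig peptide hormone, had 18.51 and 3.44 reads in CiLC and 0 and 37.01 in MEF, so its libraries disagreed within both groups and it was not called (edgeR adjusted p = 0.406).

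In LC against MEF, 17 of the 19 were higher, Ephx1 was lower and Mc2r was not called (median log2 3.57, beside 35.7% of all tested genes called higher). Some of the 17, such as Mrap and Amhr2, passed the filter only through LC. The direction of such genes was largely fixed by the filter, which also enters the count and the median. Cyp11a1 had 717.8 and 692.7 CPM in LC and 1.42 and 1.25 in MEF, 526.8-fold higher (edgeR adjusted p = 2.95e-27). Mrap, an accessory protein of the adrenocorticotropin receptor, had 127.1 and 124.0 CPM in LC and no read in MEF, at least 1602-fold higher. Amhr2, the receptor of anti-Müllerian hormone, had 724 reads in LC and 3 in MEF, a ratio of 269.9 with a counting interval of 92.0 to 1312. Ephx1, a detoxifying epoxide hydrolase, averaged 178.9 CPM in LC and 210.6 in MEF (edgeR adjusted p = 8.07e-05), a small difference that was lost with a coefficient of variation of 0.1 or 0.4.

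Between CiLC and LC, 16 of the 19 were lower in CiLC and 3 higher (median log2 -3.31, beside 35.6% of all tested genes called lower). Some genes, such as Mrap and Amhr2, passed the filter only through LC, and Mc2r passed only through CiLC. Their direction was largely fixed by the filter. Cyp11a1 was 57.3-fold lower in CiLC (edgeR adjusted p = 1.71e-26) and Star 3.14-fold lower (edgeR adjusted p = 1.02e-18), against 2.40-fold for Nr5a1 itself. Mrap had 1 read in CiLC and 4298 in LC, a ratio of 4943 with a counting interval of 887 to 195284 in favour of LC; the fitted fold was 2180 without CiLC replicate 1, and CiLC was at 0 without CiLC replicate 2. Mc2r, the adrenocorticotropin receptor, had 64 and 74 reads in CiLC and 7 and 2 in LC, a ratio of summed reads of 13.3 with a counting interval of 6.82 to 29.8 (edgeR adjusted p = 1.74e-08). Its fitted fold was 28.2 without LC replicate 1 and 8.51 without LC replicate 2. Prlr averaged 90.2 CPM in CiLC and 54.8 in LC, 1.65-fold higher (edgeR adjusted p = 5.90e-11). The third higher gene was Ephx1, by 1.31-fold. With a coefficient of variation of 0.4 the calls of Prlr and Ephx1 were lost.

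**Figure D4:**
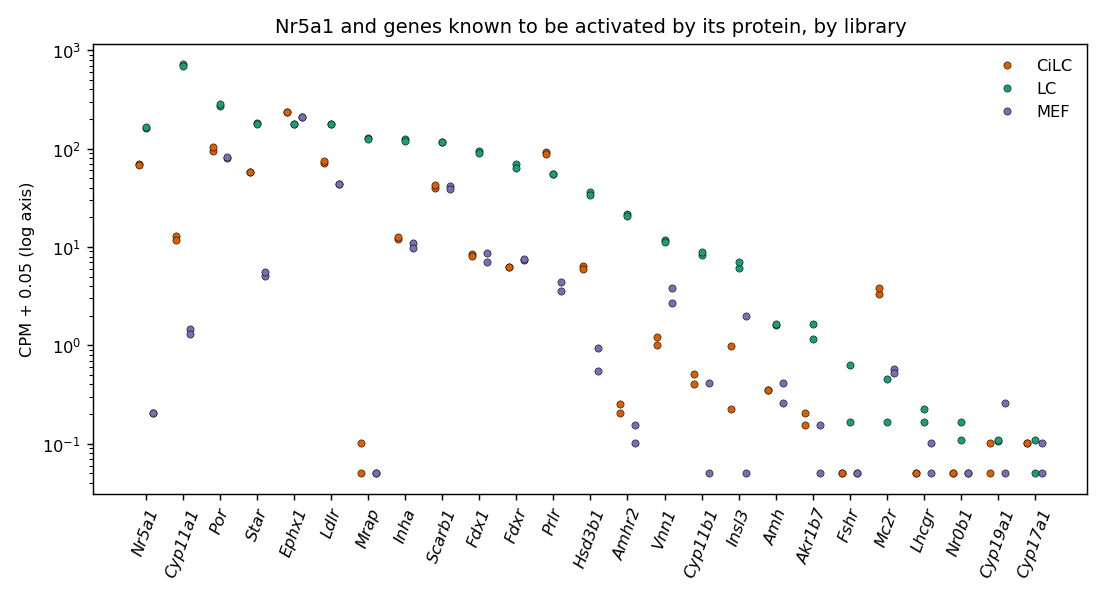
CPM + 0.05 on a log axis for Nr5a1 and genes known to be activated by its protein, with 1 point for each library of CiLC, LC and MEF. Nr5a1 averaged 69.0 CPM in CiLC, 166 in LC and 0.157 in MEF, while Cyp11a1 averaged 12.3 CPM in CiLC, 705.3 in LC and 1.33 in MEF.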

How the data were processed

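RNA was sequenced from 6 libraries of cultured mouse cells, 2 each of CiLC, LC and MEF, on a BGISEQ-500, per the labels' protocols. The authors deposited expected counts, meaning reads per NCBI gene number as estimated by a counting program, after alignment with HISAT to mm9, per the submitters' processing notes and the file headers. The sources used here do not give the counter, the annotation or the strandedness, so antisense reads, such as those of Wt1os and Emx2os, cannot be told apart from Wt1 and Emx2. Between 32.4% and 32.8% of values in a library were not whole, as where reads are split between genes; of the members this held for Nr2f1, Nr2f2 and Lhx9.

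Symbols were matched for 18179 of 18305 gene numbers in the RefSeq gene table of GRCm38.p6, and the other 126 numbers held 0.164% to 0.259% of reads. Counts were rounded and fitted over all 6 libraries with edgeR 4.0.16 in R 4.3.3 (TMM scaling, filter on at least 10 reads, quasi-likelihood F test, two-sided, Benjamini-Hochberg over 14581 genes); 3724 genes were filtered out. A gene read almost only in a single group passed the filter through that group, so its direction was largely fixed by the filter. The same holds for a gene nearly missing from a group, in comparisons with that group. This also enters the counts and medians of the lists, as with Sox8, read mainly in LC, and Bcl11b, nearly missing from LC. CPM were computed with TMM library sizes, and SEs from the fitted weights and quasi-dispersion. A group at 0 was given a floor of 3 reads summed over its libraries, and ratios on few reads carry exact 95% binomial intervals for counting error only. The chi-square per degree of freedom between the libraries of a group was 1.80 in CiLC, 2.98 in LC and 2.81 in MEF, above sampling noise. DESeq2 1.42.0, limma 3.58.1 and other settings, 15 in all, were tried as alternatives.

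All 9 members are named. From each list of related genes, up to 3 called genes with the largest positive and up to 3 with the largest negative change per comparison, with a mean of at least 1 CPM in the higher group, could be named, with 7 Leydig genes always and the 3 genes nearest in pattern to each member. Genes outside this rule, such as not called ones, marker genes and Insr, were chosen after their values were seen. The members, the lists and the tests were chosen with earlier results of these data known. Hsd17b3 and Xist are not analysed here, nor are a few other listed genes reported by name.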

Additional observations from a re-analysis of the deposited data

How the results depend on the processing

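Of the results for named genes under 15 alternatives, 2664 kept their side of the threshold, 154 lost the call and 8 gained one. Another 2 changed sign and were called in the main or the alternative fit. A change of sign with no call in either fit counts among the 2664. The member counts stayed at 8, 8 and 9 in CiLC against MEF, LC against MEF and CiLC against LC under most settings. Calls over all genes were 7529 in CiLC against MEF, 10311 in LC against MEF and 10295 in CiLC against LC. An assumed coefficient of variation of 0.1 gave 4205 in CiLC against MEF, and 0.4 gave 675, 2508 and 2251, with 3 members left in CiLC against MEF. Leaving out 1 library gave 6127 to 7437, 9411 to 10314 and 9333 to 10488 genes and 8 to 9, 8 to 9 and 9 members. Insl3 in CiLC against MEF ranged over -2.62 to 6.39 (log2) when 1 library was left out, the last without MEF replicate 2, against -0.78 with all libraries, and Nr3c1 in LC against MEF turned to -0.03 with quantile normalization; the cause was not tested. Upper quartile scaling moved the median log2 fold change of all genes in LC against MEF to -0.108, against -0.008 with TMM.

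Deviations of same-numbered libraries correlated at -0.0791 between CiLC and LC, 0.0965 between CiLC and MEF and 0.0145 between LC and MEF. Libraries of a group differed little, so these low values cannot tell if replicate numbers pair the libraries. With the replicate block, 7505, 10294 and 10290 genes were called and the member calls were the same 8, 8 and 9 in number. Reads limit Nr5a1 and Tcf21 in MEF, at 6 and 7 in all. With 2 libraries a group and a common coefficient of variation of 3.16%, calls on small differences rest on the narrow spread of these libraries.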

Other observations

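Gata4, Gata6 and Tcf21 also work in heart and gut mesenchyme, and a list of 11 transcription factors of those tissues was read beside them; 6 passed the filter. In CiLC against MEF 3 were higher, 0 were lower and 3 were not called by edgeR (median log2 0.52), beside 26.1% of all tested genes called higher and 25.5% lower, and 0 were lower at an unadjusted p under 0.05 or by DESeq2 or limma. Hand2, a factor of heart, limb and gut mesenchyme, had 16.3 and 18.1 CPM in CiLC and 9.12 and 9.32 in MEF, 1.86-fold higher (edgeR adjusted p = 1.16e-07). Barx1, the stomach mesenchyme homeobox factor, was 3.49-fold higher (edgeR adjusted p = 7.65e-05). Nkx2-3, a factor of gut and spleen mesenchyme, had 27 and 22 reads in CiLC and 4 and 0 in MEF, a ratio of summed reads of 11.9 with a counting interval of 4.37 to 45.5 (edgeR adjusted p = 0.000119). Its fitted fold was 5.78 without MEF replicate 2, and MEF was at 0 without MEF replicate 1. Nkx2-3 passed the filter only through CiLC, so its direction was largely fixed by the filter. With a coefficient of variation of 0.4 assumed, 1 of the 3 was still called, Nkx2-3.

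In LC 0 genes of the list were higher than in MEF, also at an unadjusted p under 0.05 and by DESeq2 and limma, 5 were lower and 1 was not called, beside 35.7% of all tested genes higher and 35.0% lower (median log2 -2.93, or -2.27 with genes at 0 set at their bounds). Hand2 averaged 0.234 CPM in LC and 9.22 in MEF, 38.4-fold lower (edgeR adjusted p = 1.17e-14), and Tbx5, a factor of heart and forelimb, averaged 0.213 CPM in LC and 5.02 in MEF, 20.9-fold lower (edgeR adjusted p = 3.24e-11). All 6 were higher in CiLC than in LC (median log2 4.36), beside 35.0% of all tested genes: Hand2 by 71.6-fold, Tbx5 by 22.0-fold and Barx1, which had no read in LC, by at least 29.3-fold. Hand2, Tbx5, Barx1 and Nkx2-3 held too few reads in LC to pass the filter through it. In both comparisons with LC, the direction of such genes was largely fixed by the filter. Of the early heart factors, Nkx2-5, Tbx20 and Isl1 had at most 0.417 CPM in any library and were not tested.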
